A study of Mus musculus with 40 samples.

Results

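The distal convoluted tubule (DCT) is a short segment of the kidney tubule between the thick ascending limb and the connecting tubule. The nuclei described here were those that the authors' deposited annotation names DCT in the coarser of its pair of cell type columns. There were 992 of them among 16500 annotated nuclei, taken from 4 male C57BL/6 mice aged 8 to 12 weeks. The right kidney was collected 24 h after a sham operation (2 mice) or after unilateral nephrectomy, removal of the left kidney, abbreviated UNx (2 mice). By the labels, sham replicate 1 and UNx replicate 1 belonged to batch 3, and sham replicate 2 and UNx replicate 2 to batch 4. Nuclei came from a section of the kidney, were sorted by DAPI fluorescence and were sequenced on the 10x 3' platform, so the values are nuclear RNA. Bulk RNA-seq of the same kidney in 36 other male mice of the same strain and age range covered 24 h (labelled batch 1), 48 h and 72 h (both labelled batch 2), with 6 sham and 6 UNx mice at each time. The study compared the kidney that remains after nephrectomy with a kidney from a sham-operated mouse.

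DCT cells take up sodium chloride from the urine through the thiazide-sensitive cotransporter encoded by Slc12a3. The kinases WNK1, WNK4 and SPAK (Stk39) switch that transporter on, and the KLHL3-CUL3 ubiquitin ligase removes the WNK kinases. The segment also sets the final urinary magnesium through the channel TRPM6, on which the hormone EGF, made by the distal nephron, acts as a stimulus. Its late portion takes up calcium through TRPV5, carries it bound to calbindins (Calb1, S100g) and exports it through the exchanger encoded by Slc8a1.

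The promoters of 3 genes on which the account turns are printed because the first pair marks the segment and Trpm6 and S100g differed between the surgeries. Each stretch is 240 bases from RefSeq (build GRCm38.p6), running from 250 to 10 bases before an annotated transcript start, read 5′ to 3′ on the gene's strand. Capitals mark GCCNNNGGC, the TFAP2 motif, in Slc12a3 and Trpm6, and AAGGTCA or its reverse complement, the half-site of estrogen-related receptors, in S100g. The matches lay 64 bases before that start in Slc12a3, 59 before it in Trpm6, and 214 and 100 before it in S100g. For Slc12a3 and Trpm6 the start is that of a transcript that begins inside the gene span given below, and the distances do not count from the outer end of the span.
Slc12a3 (chr8:94328958-94329197, plus strand): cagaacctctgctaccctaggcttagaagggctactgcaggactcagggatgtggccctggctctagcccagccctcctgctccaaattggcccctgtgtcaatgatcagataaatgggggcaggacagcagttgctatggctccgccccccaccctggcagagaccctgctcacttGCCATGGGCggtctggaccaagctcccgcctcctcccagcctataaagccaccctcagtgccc
Trpm6 (chr19:18749480-18749719, plus strand): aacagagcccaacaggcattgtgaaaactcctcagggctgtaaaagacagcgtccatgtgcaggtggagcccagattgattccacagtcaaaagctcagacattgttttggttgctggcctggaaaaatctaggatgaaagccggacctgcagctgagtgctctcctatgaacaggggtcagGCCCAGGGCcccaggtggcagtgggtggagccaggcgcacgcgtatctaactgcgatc
S100g (chrX:162964610-162964849, minus strand): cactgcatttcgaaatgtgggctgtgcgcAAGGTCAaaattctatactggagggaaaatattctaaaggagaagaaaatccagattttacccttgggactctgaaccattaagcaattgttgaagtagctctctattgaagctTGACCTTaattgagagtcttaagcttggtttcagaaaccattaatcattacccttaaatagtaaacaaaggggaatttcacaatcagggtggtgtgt

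Both strands were searched in 32851 RefSeq mouse promoters of that length, with those of 1 chromosome left out. GCCNNNGGC occurred in 13.0% of them, AAGGTCA in 3.94% and GTTAAT, the half-site of HNF1, in 6.26%. Of the 9 genes found below to be at least 2-fold higher in DCT than in every other class, 8 had a promoter among those searched, 15 promoters in all. Of these genes, 4 (Fgf13, Slc12a3, Trpm6 and Tsc22d1) held GCCNNNGGC in at least 1 promoter and none held either other motif. The shares above are per promoter, so a count per gene cannot be set against them. A match is a description of the letters in this window.

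Slc12a3 and Trpm6 fitted the DCT name. Slc12a3 stood at 14227 counts-per-million of the summed nuclei (CPM) in sham 1, 9670 in sham 2, 15401 in UNx 1 and 9773 in UNx 2. In every mouse it was at least 6.69 times its level in any of the other 22 classes with 10 or more nuclei per mouse. Trpm6 stood at 2072, 1010, 1134 and 518 CPM in the same order, against 257, 217, 277 and 108 CPM in the connecting tubule, its next highest class on average. Pvalb, the calcium-binding protein parvalbumin, was low, at 43.4, 22.2, 21.7 and 15.9 CPM, which came from 109, 77.6, 47.0 and 41.5 UMIs. In each mouse Slc12a3 and Trpm6 were highest in DCT, and Pvalb was so in all but UNx 2, where the class labelled Per held 20.0 CPM. RefSeq (GRCm38.p6) places Slc12a3 at chr8:94329109-94366222, Trpm6 at chr19:18730177-18892521 and Pvalb at chr15:78191112-78206400.

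**Figure D1:**
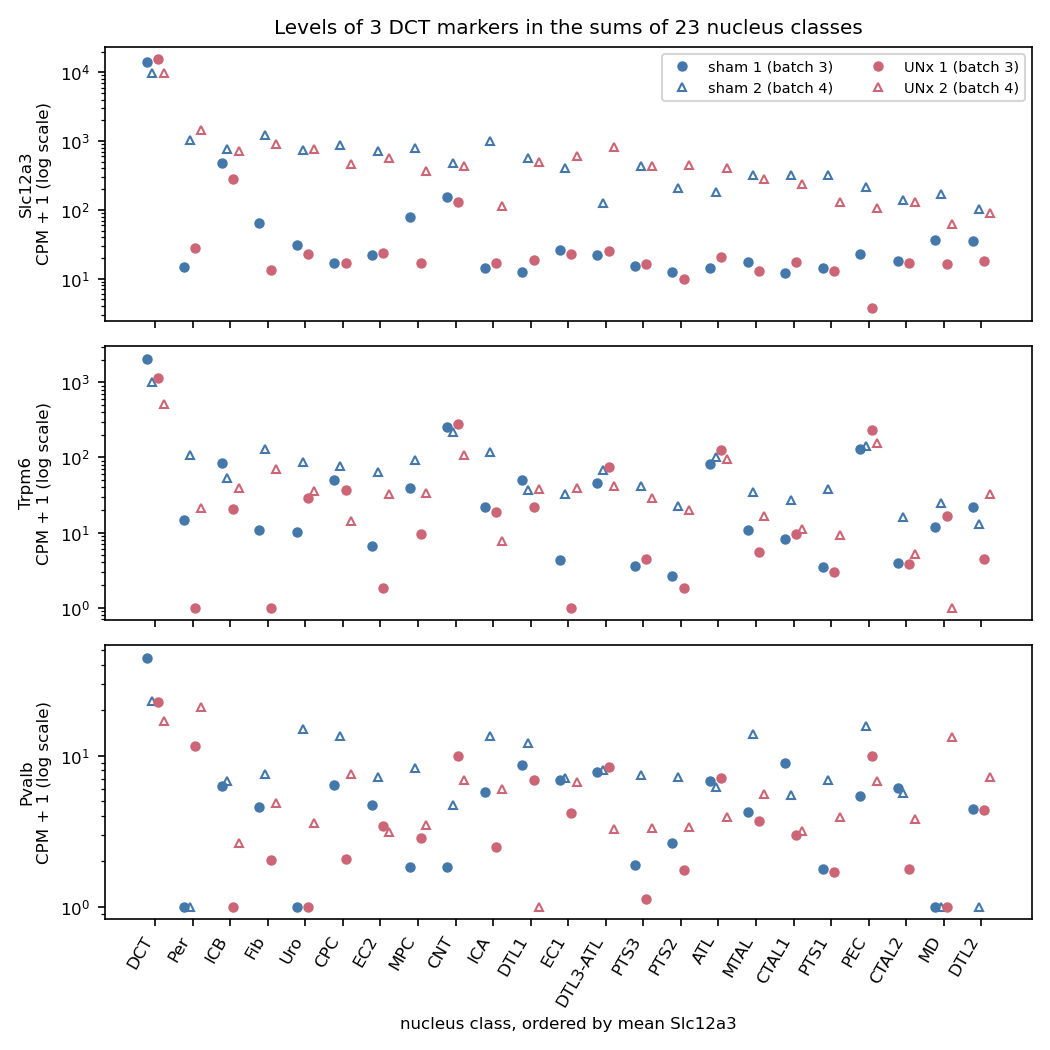
Levels of Slc12a3, Trpm6 and Pvalb (CPM plus 1, log axis) in the summed nuclei of each of 23 classes, 1 point per mouse. Slc12a3 and Trpm6 are highest in DCT in all 4 mice, and Pvalb is low in every class.

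The 4 libraries fell into their batches in almost every measure of RNA from elsewhere. The 10 proximal tubule markers together made up 2632 and 4206 CPM of the DCT sums of batch 3 (sham 1, UNx 1), against 13143 and 13784 CPM in batch 4 (sham 2, UNx 2). The 6 thick limb markers summed to 564 and 381 CPM in batch 3 and to 3436 and 3810 CPM in batch 4. The median mitochondrial share of a DCT nucleus was 0.555% and 0.967% in batch 3 and 5.19% and 7.17% in batch 4, so within each batch it was higher in the UNx mouse. The T cell marker Cd3e was at 0 in all 4 DCT sums. Endothelial markers summed to 29.4 to 267 CPM, immune markers to 18.0 to 92.3 CPM and podocyte markers to 2.20 to 58.3 CPM. Across all nuclei 18 barcodes occurred in more than 1 library, and none of them belonged to a DCT nucleus.

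Few genes were particular to DCT in these nuclei. With a level of at least 50 CPM in every mouse and 4 times that of every other class, only Slc12a3 and Fgf13, an intracellular fibroblast growth factor homologous factor, qualified. Fgf13 stood at 211, 74.96, 226 and 67.2 CPM in sham 1, sham 2, UNx 1 and UNx 2. A 2-fold margin added 7 genes. These were Trpm6, the related channel kinase Trpm7, the magnesium transport protein Cnnm2, the ubiquitin ligase adaptor Klhl3, the leucine zipper protein Tsc22d1, and the transcription factors Lhx1 and Sall3. They range from a mean near that of Sall3 (267, 94.6, 265 and 98.2 CPM) to that of Tsc22d1 (2153, 1276, 2090 and 1106 CPM). These genes and the annotation come from the same nuclei, so they describe the class and test nothing.

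The 8 genes whose levels over the 23 classes correlated best with Slc12a3, as first ranked, all lay at 0.57 CPM or less in DCT and were not read further. Among the 4000 genes with a mean of at least 50 CPM in DCT, a minimum set after those values were seen, the most similar were Tsc22d1 (Pearson r = 0.76), Fgf13 (0.74), Nup93 (0.72), Slc8a1 (0.72), Calb1 (0.71), Trpm7 (0.71), Trpm6 (0.70) and Emx1 (0.70). The points share libraries and depth, so r is a description. Slc8a1 was higher in the connecting tubule than in DCT in each of the 4 mice (mean 33594 against 20813 CPM), and Calb1 was about level in the pair of segments (1586 and 1593 CPM).

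DCT nuclei made up 5.95% of sham 1 (318 of 5342, 95% Clopper-Pearson interval 5.33 to 6.62), 8.63% of sham 2 (228 of 2641, 7.59 to 9.77), 4.87% of UNx 1 (251 of 5151, 4.30 to 5.50) and 5.79% of UNx 2 (195 of 3366, 5.03 to 6.64). The intervals cover counting error only. The share was 7.29% ± 1.90 (SD, n = 2) after sham surgery and 5.33% ± 0.65 after UNx, a difference of -1.96 percentage points. It was -1.08 points within batch 3 and -2.84 within batch 4. Both UNx mice lay below both sham mice, UNx 2 only just below sham 1. The two-sided exact permutation test gave p = 0.333, the smallest value that 2 against 2 mice allow. The median UMI count per DCT nucleus was 7693 in sham 1, 10413 in sham 2, 8411 in UNx 1 and 8465 in UNx 2, which is higher in UNx within batch 3 and lower within batch 4 (exact permutation p = 1).

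Next, counts were summed over the DCT nuclei of each mouse (2511256 UMIs in sham 1, 3502919 in sham 2, 2168242 in UNx 1 and 2608894 in UNx 2) and compared between surgeries, with values below on the TMM-scaled CPM scale. Trpm6, the magnesium channel, stood at 2126 CPM in sham 1 and 1136 in UNx 1 (batch 3), and at 982 in sham 2 and 534 in UNx 2 (batch 4). Egf stood at 2911 and 1825 CPM in batch 3 and at 2715 and 1639 in batch 4. Slc12a3 did not follow them, at 14597 and 15433 CPM in batch 3 and 9403 and 10088 in batch 4. In the test without the batch, edgeR's quasi-likelihood test called 0 of 12669 genes (0%) at an adjusted p under 0.05, and 17 had an unadjusted p under 0.05. DESeq2 and limma voom without the batch also called 0.

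With the labelled batch as a block, the same test called 61 genes (0.481%), 29 higher (0.229%) and 32 lower (0.253%) after UNx, and 1171 had an unadjusted p under 0.05. That fit has 1 residual degree of freedom, and its spread is borrowed from all genes. No mouse can be left out of it, since none would remain for the error. All 61 calls below therefore rest on the block. Log2 fold changes are UNx over sham from it, with the standard error and the Benjamini-Hochberg adjusted p.

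Of the 32 lower genes, 19 were more abundant in DCT than in all other nuclei together in each of the 4 mice, and 11 were less abundant in each. Of all 12669 genes tested, 2735 were more abundant in DCT in each mouse. The number less abundant in each was not counted over all genes. None of the 29 higher genes was more abundant in DCT in every mouse, and 19 were less abundant in each. Among the higher genes were 7 encoded by mitochondrial DNA and the proximal tubule transporters Slc22a6, Slco1a1 and Slc22a7. Slc22a6 stood at 12.7 and 29.6 CPM in batch 3 and 160 and 296 in batch 4, against 59.0, 168, 189 and 323 CPM in all other nuclei. Lower genes that were less abundant in DCT included the proximal endocytic adaptor Dab2, at 34.7 and 16.2 CPM in batch 3 and 1208 and 567.8 in batch 4. These genes are abundant in proximal tubule nuclei, whose marker sums in DCT are given above, and the part of RNA from other cells in these calls was not tested.

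Leaving out 6 predicted genes, 13 of the 19 lower genes that were more abundant in DCT have an established symbol. This choice was made after the values were seen. Trpm6 fell by 0.89 (SE 0.12, adjusted p = 0.00439). The UNx mouse was lower in each batch, yet sham 2 lay below UNx 1, so the groups overlap across batches. Egf, whose product stimulates TRPM6, fell by 0.70 (SE 0.12, adjusted p = 0.0176), and here both UNx mice lay below both sham mice. RefSeq places Egf at chr3:129677574-129755322. Of the 13 genes, 8 had a promoter among those searched (15 promoters), and 3 of these genes (Lgr4, Trpm6 and Upp1) held GCCNNNGGC and 1 (S100g) held AAGGTCA in at least 1 promoter.

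The calcium-binding proteins were lower too. Calb1 (calbindin-D28k, chr4:15881264-15906709) stood at 2954 CPM in sham 1 and 1441 in UNx 1, and at 1188 in sham 2 and 861 in UNx 2. It fell by 0.75 (adjusted p = 0.0356). In all other nuclei Calb1 went from 82.6 to 63.5 CPM in batch 3 and from 152 to 88.8 in batch 4, so it was lower there as well. S100g (calbindin-D9k, chrX:162961992-162964599, whose promoter holds the pair of AAGGTCA matches) stood at 137 and 79.5 CPM in batch 3 and at 440 and 222 in batch 4, and fell by 0.90 (adjusted p = 0.00706). S100g is the gene where the batches sit the other way round, with both batch 4 mice above both batch 3 mice. In all other nuclei it stood at 68.2 and 51.7 CPM in batch 3 and 412 and 209 in batch 4, so in batch 4 the level outside DCT was nearly as high as inside.

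Secreted and matrix proteins made up a further group. Defb1, a beta-defensin (chr8:21776555-21795185), stood at 1347 and 371 CPM in batch 3 and at 530 and 340 in batch 4, and fell by 1.25 (adjusted p = 0.0166). DESeq2 with the same block did not call it (adjusted p = 0.9998). Both UNx mice lay below both sham mice, and the drop was larger in batch 3. Col5a2, a fibrillar collagen chain, stood at 306 and 144 CPM in batch 3 and 297 and 44.3 in batch 4 (log2 fold change -1.84, adjusted p = 0.00631). In all other nuclei Col5a2 stood at 72.0 and 22.8 CPM in batch 3 and 67.1 and 16.5 in batch 4, so it was lower there as well. DESeq2 with the block did not call Col5a2 either (adjusted p = 0.9998). Pamr1, a secreted peptidase-domain protein, stood at 114 and 41.1 CPM in batch 3 and 44.7 and 16.6 in batch 4 (-1.45, adjusted p = 0.00369). Adamtsl3, a secreted ADAMTS-like protein, fell by 1.58 (adjusted p = 0.0271) from few UMIs, 90.1 and 68.1 in the sham mice and 23.6 and 17.6 in the UNx mice.

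Genes of signalling and metabolism completed the 13. Socs2, a feedback inhibitor of growth hormone and STAT5 signalling, stood at 148 and 82.3 CPM in batch 3 and 107 and 37.6 in batch 4 (-1.15, adjusted p = 0.00706). Lgr4, a receptor for R-spondins that raises WNT signalling, stood at 629 and 334 CPM in batch 3 and 408 and 291 in batch 4 (-0.70, adjusted p = 0.0390). Epb41l3, a membrane skeleton protein, stood at 257 and 145 CPM in batch 3 and 206 and 125 in batch 4 (-0.77, adjusted p = 0.0164). Upp1 (uridine phosphorylase, -1.52, adjusted p = 0.0284) and Oprm1 (the mu opioid receptor, -0.85, adjusted p = 0.0184) were the others. Oprm1 stood at 403 and 234 CPM in batch 3 and at only 40.0 and 20.2 in batch 4. Outside DCT it stood at 79.8 and 47.0 CPM in batch 3 and 14.5 and 7.61 in batch 4, so it was lower there as well. In all other nuclei Socs2 went from 36.8 to 12.9 CPM and from 52.9 to 12.8. Lgr4 went there from 373 to 302 CPM and from 376 to 254, and Epb41l3 from 127 to 115 and from 190 to 83.9. In DCT both UNx mice lay below both sham mice for Socs2, Lgr4 and Epb41l3. Cish, the related feedback inhibitor, had a log2 fold change of -1.32 that missed the threshold (adjusted p = 0.0781). In all other nuclei Cish went from 51.1 to 9.62 CPM and from 47.8 to 7.90.

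Calcr, the calcitonin receptor (chr6:3685678-3764713), was called higher in DCT nuclei with the block. It stood at 3.27 and 12.9 CPM in batch 3 and 2.22 and 13.5 in batch 4, from 8.0 and 28.0 UMIs and 8.0 and 33.9 UMIs. It rose by 2.29 (SE 0.43, adjusted p = 0.0352). In all other nuclei it stood at 5.03 and 3.60 CPM in batch 3 and 2.83 and 1.97 in batch 4. The difference between DCT and all other nuclei in the UNx effect was 2.74 with batch within class in the model (edgeR adjusted p = 4.37e-04). Against the cortical thick limb, where Calcr went from 3.05 to 12.6 CPM in batch 3 and from 11.2 to 4.25 in batch 4, the difference was 2.02 and was not called (adjusted p = 0.283). Against the connecting tubule it was 2.35 (adjusted p = 0.9998). The change was therefore not shown to be particular to DCT among its neighbours. Limma voom with the block gave an adjusted p of 0.0503, DESeq2 gave none, and the gene was picked after its values were seen.

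**Figure D2:**
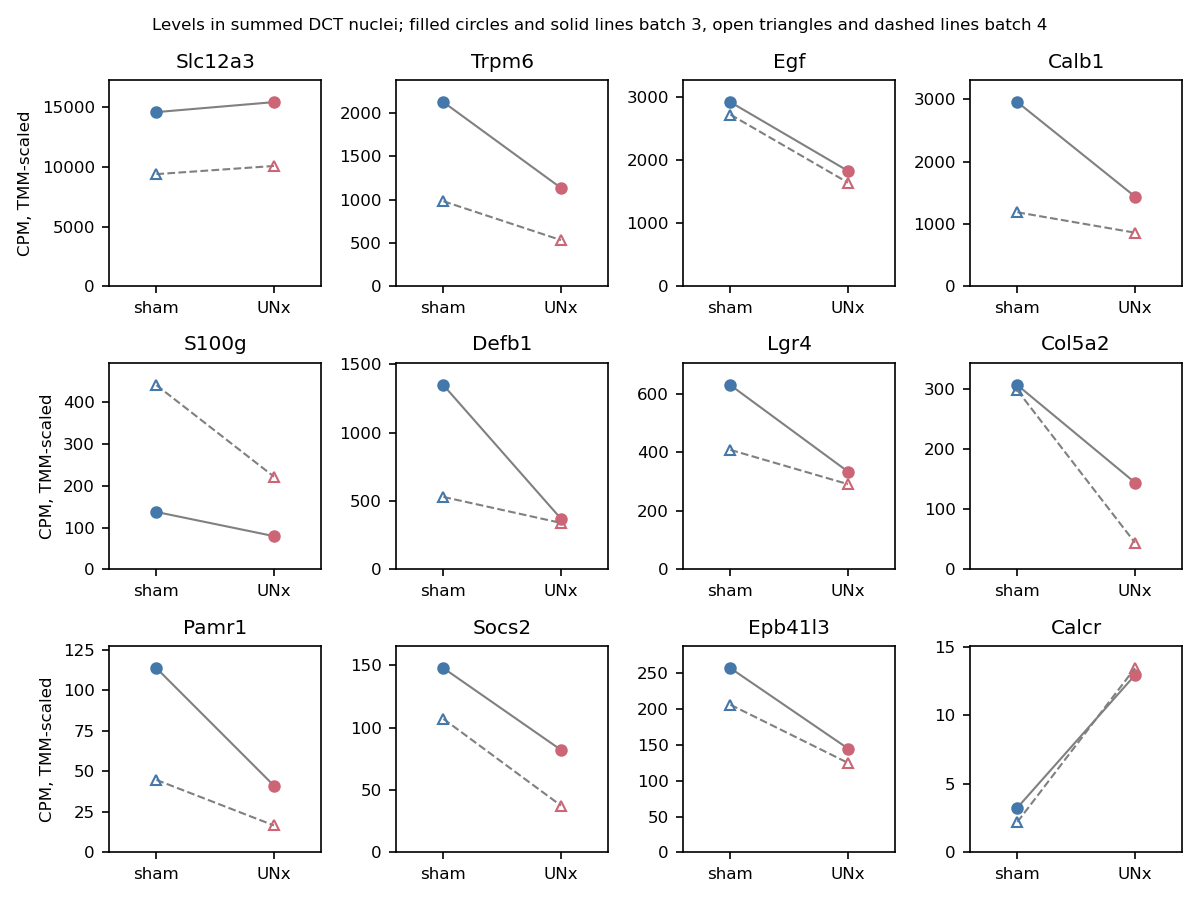
Levels of 12 genes in the summed DCT nuclei (TMM-scaled CPM, axes from 0) in sham and UNx mice, with a line joining the mice of each labelled batch. Slc12a3 is slightly higher after UNx in both batches (0.09 on the log2 scale), 10 genes from Trpm6 to Epb41l3 are lower in both, and Calcr is higher in both.

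The block calls were repeated under 6 other settings that kept the block. Egf, Pamr1, S100g and Trpm6 were called in each of these 7 fits. DESeq2 with the block called 31 genes and kept 6 of the 13 (Trpm6, Egf, Calb1, S100g, Pamr1 and Socs2). It did not call Col5a2, Defb1, Adamtsl3 (adjusted p = 0.514), Upp1 (0.471), Epb41l3 (0.146), Lgr4 (0.144) or Oprm1 (0.127). Among the 774 DCT nuclei without an excess of proximal tubule and thick limb markers, 15 genes were called, and 6 of the 13 were among them (Trpm6, Egf, Pamr1, S100g, Col5a2 and Defb1). Among the 485 nuclei without an excess of markers of any other type, 71 were called, 12 of the 13 among them, and Trpm6 fell by 1.09. Both filters set the other markers against the UMIs of Slc12a3, Trpm6 and Pvalb. The markers of any other type included Slc8a1 and Calb1. Values of these genes in the subsets therefore depend in part on the filters. In the fit of the 485 nuclei the spread was taken wholly from all genes.

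By the rule for named genes, the 8 higher genes of lowest p without the block were Rhcg, Pmepa1, Acyp2, Gse1, Egfem1, Cox10, Rai1 and Eps15l1. None was called with or without the block. Rhcg, an ammonia channel, went from 109 to 177 CPM in batch 3 and from 126 to 165 in batch 4 (adjusted p = 0.140 with the block). The 8 lower genes were Epb41l3, Col5a2, Defb1, Socs2 and Egf, described above, and Fgf9, B4galt1 and Gab1, which were not called. Fgf9, a fibroblast growth factor, had a log2 fold change of -0.74 (adjusted p = 0.0746 with the block), and Gab1, an adaptor of receptor tyrosine kinases, one of -0.53 (adjusted p = 0.130).

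The genes of sodium chloride reabsorption did not pass the test. Of 23 tested, 0 were called with the block, 9 were higher and 6 lower in both batches, and the median log2 fold change was 0.02, beside -0.0074 over all genes. Of all genes, 26.2% were higher and 28.5% lower in both batches. Slc12a3 differed by 0.09 (adjusted p = 0.890). For the kinases that control it the differences were -0.33 (Wnk1), -0.27 (Wnk4) and 0.07 (Stk39), and for Klhl3 -0.12. Wnk1 stood at 6834 and 5290.5 CPM in batch 3 and 2753 and 2243 in batch 4. The potassium channel subunits Kcnj10 and Kcnj16, which lie on the blood side of the cell, differed by 0.31 and 0.23, each higher in both batches, and neither was called. The mineralocorticoid receptor Nr3c2 (-0.02) and its target kinase Sgk1 (0.14) were not called.

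Magnesium and calcium genes leaned the other way. Of 20 tested, 4 were called lower with the block (Trpm6, Egf, Calb1 and S100g) and 0 higher. In both batches 10 were lower and 3 were higher, and the median log2 fold change was -0.18. The list was drawn up with earlier results of these data known, so its count is no independent evidence. Trpm7 (-0.17), Cnnm2 (-0.16), Pvalb (-0.73, adjusted p = 0.351) and Trpv5 (-0.49, adjusted p = 0.499) were not called. Kl, the co-receptor for FGF23 that the distal tubule makes, stood at 1247 and 677 CPM in batch 3 and at 708 and 643 in batch 4 (-0.51, adjusted p = 0.255). Slc8a1, the calcium exchanger, stood at 30294 and 31393 CPM in batch 3 and at 9289 and 13259 in batch 4 (0.28, adjusted p = 0.566). Umod, the thick limb product uromodulin, differed by -0.56 and was not called.

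**Figure D3:**
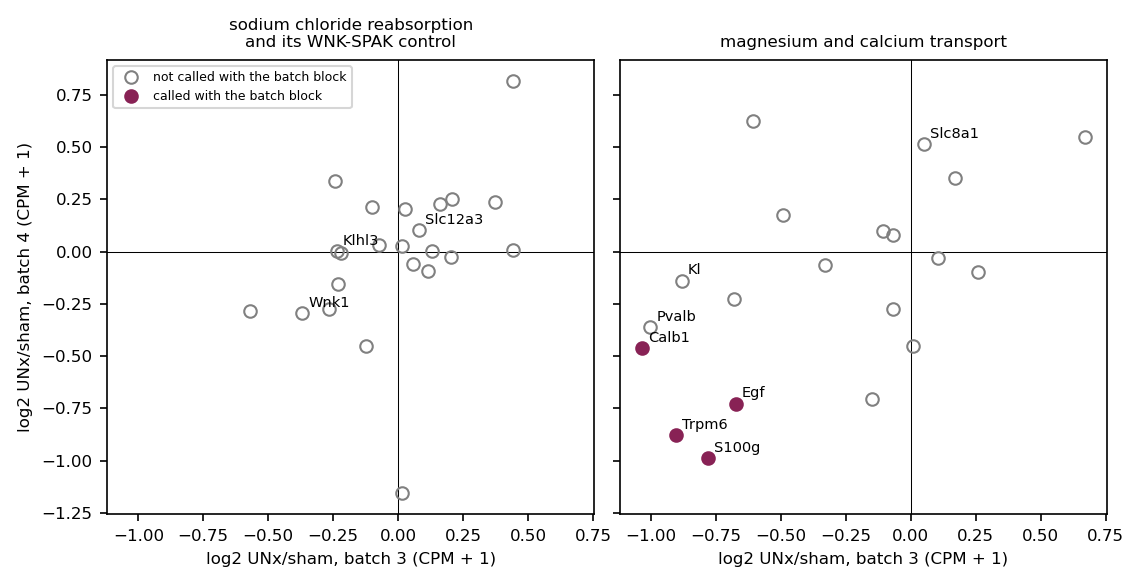
Each point is a gene of the sodium chloride list (left, 23 genes) or of the magnesium and calcium list (right, 20 genes), placed by its log2 ratio of UNx to sham (CPM plus 1) in batch 3 and in batch 4. Filled points are the 4 genes called with the block, Trpm6, Egf, Calb1 and S100g, all in the lower left quadrant.

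In the other lists the calls were few. None of 15 distal transcription factors was called, with Emx1 at -0.29, Sall3 at 0.04, Tfap2b at 0.22, Esrrg at 0.01 and Ppargc1a at 0.11. Of 11 late distal and connecting segment genes, 2 were called lower, Calb1 and S100g, which the magnesium and calcium list also holds. Of 27 growth, IGF and mTOR genes, 1 was called lower, Egf, and the receptors Erbb4 (0.13) and Igf1r (-0.17) were not. Of 26 cell cycle genes 7 passed the filter on low counts and 0 were called. At 3000 UMIs per nucleus, the share of DCT nuclei with a UMI of the proliferation marker Mki67 lay between 0.296% and 1.23% over the 4 mice.

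No gene was called among 24 of cholesterol synthesis, 31 of the nuclear-encoded respiratory chain, 15 of the circadian clock, 11 of the glucocorticoid and mineralocorticoid response, 11 immediate early and stress genes and 8 tubular injury genes. Of the 31 respiratory genes, 11 were higher and 0 lower in both batches (median 0.10). The mitochondrial share of DCT nuclei was also higher in the UNx mouse of each batch. Whether the count of higher respiratory genes is related to that share was not tested.

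The UNx effect in DCT was then compared with that in neighbouring segments and in all other nuclei. With mouse in the model, edgeR called 0 genes in each comparison (0% of 12412 against the connecting tubule, 13537 against the cortical thick limb and 18702 against all other nuclei), with 273, 166 and 82 genes at an unadjusted p under 0.05. Limma voom called 0 in each as well. With the batch entered within each class and mouse kept in the model, which leaves 1 residual degree of freedom, 36 (0.29%), 35 (0.259%) and 68 (0.364%) were called. Of these 0.153% and 0.137% of the genes tested were higher and lower against the connecting tubule, 0.0591% and 0.199% against the thick limb, and 0.214% and 0.15% against all other nuclei. The values below come from that second model. Against the connecting tubule and all other nuclei it took the spread wholly from all genes, and nearly so against the thick limb. Its p-values therefore hardly carry how far the batches disagreed for a single gene.

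Against the 494 connecting tubule nuclei, Defb1 differed by -1.46 (adjusted p = 4.55e-20), by -2.06 in batch 3 and -0.77 in batch 4. Without the batch within class its p was 0.000851 and its adjusted p was 1. It stood at 697 and 818 CPM in batch 3 and at 482 and 496 in batch 4 in the connecting tubule, slightly higher after UNx. Kl followed (-0.91, adjusted p = 5.91e-09), being higher after UNx in the connecting tubule (1388 and 1928, 902 and 1035 CPM) and lower in DCT. The difference for Kl was -1.32 in batch 3 and -0.42 in batch 4. Wnk4 (-0.90), Calb1 (-0.65, adjusted p = 7.28e-05) and Slc8a1 (-0.59) differed in the same direction. For Calb1 the difference was -1.12 in batch 3 and only -0.098 in batch 4. Calb1 in the connecting tubule went from 1969 to 2141 CPM in batch 3 and from 1290 to 943 in batch 4. Slc8a1 in the connecting tubule went from 33680 to 60399 CPM in batch 3 and from 14742 to 25555 in batch 4. In the other direction lay Galnt18 (0.82), a glycosyltransferase, and Rhcg (0.80). Zfp981 (1.14) also did, but it belongs to a family of near-identical zinc finger genes, so its reads are uncertain. For Trpm6 the difference was -0.55 and missed the threshold (adjusted p = 0.111), with 257 and 277 CPM in batch 3 and 217 and 108 in batch 4 in the connecting tubule.

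Against the 1495 cortical thick limb nuclei, Egf differed by -0.59 (adjusted p = 1.23e-05). The thick limb, its main source, held 11649 and 10954 CPM in batch 3 and 9173 and 7863 in batch 4. Defb1 (-1.22), Kl (-1.03), Wnk1 (-0.73) and Errfi1 (-0.88), a feedback inhibitor of the EGF receptor, differed in the same direction. The difference was -1.82 in batch 3 and -0.46 in batch 4 for Defb1, and -1.59 and -0.42 for Kl. Part of these differences lay in the thick limb. There Kl was higher after UNx in both batches (176 and 294, 331 and 380 CPM), and Wnk1 was higher in batch 3 (996 and 1716) and lower in batch 4 (949 and 890). Errfi1 in the thick limb went from 50.2 to 63.8 CPM in batch 3 and from 238 to 392 in batch 4. In DCT it went from 149 to 90.0 CPM in batch 3 and was level in batch 4, at 599.5 and 599.3. Pappa, a protease of IGF-binding proteins, differed by 1.15 (adjusted p = 9.57e-05). It was nearly level in DCT (101 and 103, 104 and 81.9 CPM) and lower in the thick limb (148 and 54.2, 89.7 and 40.4 CPM). Rasgef1b, an exchange factor for RAS-like proteins, differed by 0.89, while Rpl22 and Stim2 missed the threshold. For Calb1 the difference was 0.009 and was not called (adjusted p = 0.998).

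Against all 15508 other nuclei, Egf (-0.62, adjusted p = 2.11e-05), Defb1 (-0.89) and Umod (-0.74) had negative differences. For Defb1 the difference was -1.49 in batch 3 and -0.23 in batch 4. For Umod the difference was -1.38 in batch 3 and -0.14 in batch 4. Its level in DCT went from 420 to 168 CPM in batch 3 and from 899 to 936 in batch 4. Gclc, the catalytic subunit of the enzyme that starts glutathione synthesis, differed by 1.104 (adjusted p = 9.65e-15), by 1.67 in batch 3 and 0.59 in batch 4. Without the batch within class its unadjusted edgeR p was 0.0275, and it was not called. In DCT it went from 546 to 479 CPM and from 530 to 449, and outside from 1029 to 282 and from 713 to 401. Angpt1 (0.94), an angiopoietin, and Alas1 (0.74), the first enzyme of haem synthesis, followed. Angpt1 in DCT went from 97.0 to 159 CPM in batch 3 and from 120 to 91.9 in batch 4. Outside DCT it went from 169 to 131 and from 167 to 70.4. Alas1 was lower after UNx in DCT too, from 50.6 to 42.5 CPM and from 112 to 72.7. Outside DCT it went from 118 to 50.5 and from 165 to 69.7. Dcun1d2 (-0.67) was called and Glcci1 (-0.55, adjusted p = 0.125) was not. Dcun1d2 was higher after UNx in DCT, from 67.1 to 77.5 CPM and from 71.3 to 137. Outside DCT it rose more, from 102 to 161 and from 67.4 to 227. For Trpm6 the difference was -0.35 (adjusted p = 0.439), so its lower level was not shown to be particular to DCT. Calb1 (-0.23, adjusted p = 0.978), S100g (-0.23) and Socs2 (0.56) did not differ from the other nuclei beyond the threshold either.

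DCT nuclei were not uniform in Slc8a1. In each mouse its level per nucleus spread over several orders of magnitude, and a dividing level of 10000 CPM was set after the values were seen. Above it lay 46.5% of nuclei in sham 1 (148), 28.5% in sham 2 (65), 29.9% in UNx 1 (75) and 33.9% in UNx 2 (66). Between 5000 and 20000 CPM lay 55, 31, 16 and 37 nuclei, and whether the division separates cell types was not tested. Genes of the late segment were higher above the line, in description of a division made on one of them. Trpv5 stood at 135, 99.5, 120 and 56.2 CPM above it and at 0, 6.46, 0 and 4.85 below it (sham 1, sham 2, UNx 1, UNx 2). Calb1, the urate transporter Slc2a9 and the sodium channel subunit Scnn1b were also higher above the line in all 4 mice. Below the line Col5a2, Fgf13, Trpm7, the neuregulin Nrg1 and the transcription factor Prox1 were higher in all 4. Egf stood at 4350, 3038, 2462 and 2044 CPM below the line and at 1329, 2045, 669 and 806 above it. Slc12a3 differed little, at 15114, 9456, 16343 and 10500 CPM below and 13341, 10315, 13708 and 8525 above.

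**Figure D4:**
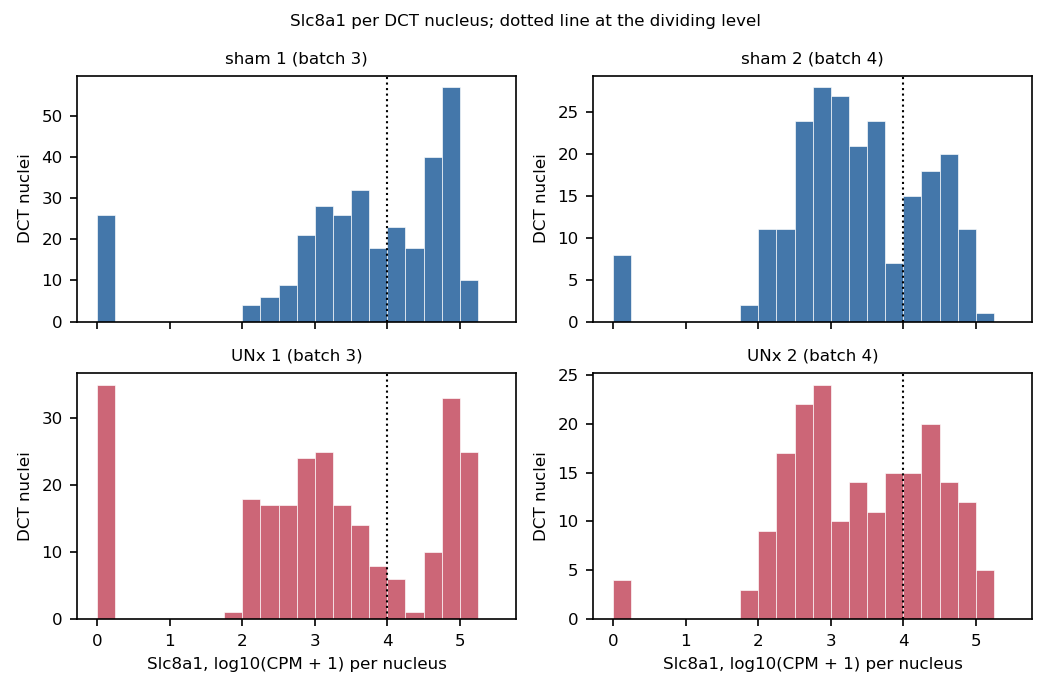
Number of DCT nuclei by Slc8a1 level (log10 of CPM plus 1) in each of the 4 mice. The dotted line marks 10000 CPM, above which lay 46.5%, 28.5%, 29.9% and 33.9% of the nuclei of sham 1, sham 2, UNx 1 and UNx 2.

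The lower genes were lower on both sides of that line. All 13 had a lower level in the UNx mouse than in the sham mouse of its batch, both above and below 10000 CPM. They were chosen as lower in the sums of these same nuclei, so this count is no independent evidence. The share over all genes was not counted. Trpm6 differed by -1.198 and -0.996 (batch 3, batch 4, log2 scale) among nuclei below the line and by -0.42 and -1.04 among those above it. Defb1 differed by -2.37 and -1.19 below and by -1.18 and -0.39 above.

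The share of nuclei in which a gene was seen moved with these levels. At 3000 UMIs per nucleus, with 1 shallower DCT nucleus left out, 95.6% of sham 1, 86.2% of sham 2, 82.7% of UNx 1 and 71.8% of UNx 2 DCT nuclei held a Trpm6 UMI (unthinned 99.1%, 98.7%, 93.2% and 92.3%). In proximal tubule S1 nuclei, which should lack it, the thinned share was 0.645%, 5.00%, 0.647% and 1.71%, at median depths of 10423, 10785, 12414 and 8358 UMIs. Calb1 was seen in 75.0%, 67.7%, 44.6% and 56.6% of DCT nuclei (unthinned 81.1%, 87.7%, 53.4% and 75.4%), against 3.31%, 18.5%, 3.22% and 10.9% of S1 nuclei. For Defb1 the shares were 80.5%, 65.1%, 44.1% and 49.4% (unthinned 90.6%, 87.3%, 62.5% and 74.9%), against 4.44%, 16.5%, 2.50% and 7.81% of S1 nuclei. For all 3 genes the share was lower in the UNx mouse of each batch. With 2 mice a group these shares were not tested.

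Bulk libraries of other mice gave the same genes a second measurement, in which a level also depends on how many DCT cells a kidney holds, so that fewer cells and less RNA per cell cannot be told apart. Other segments add to it as well. The libraries held 14868494 to 24108587 counts. EdgeR called 27.3% of genes at 24 h (14.2% higher, 13.1% lower), 32.9% at 48 h (16.9% higher, 16% lower) and 1.71% at 72 h (1.21% higher, 0.502% lower). Neither gene with the 4-fold margin was called: Slc12a3 was tested and Fgf13 was too low to test. Slc12a3 stood at 576 ± 117 CPM (SD, n = 6) in sham and 567.5 ± 76.9 in UNx mice at 24 h, at 604 ± 112 and 537 ± 65.4 at 48 h, and at 759 ± 131 and 752 ± 79.8 at 72 h, with log2 fold changes of -0.02, -0.17 and -0.01.

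Trpm6 was not lower in bulk at 24 h. The lowest, median and highest sham values were 10.4, 14.4 and 16.3 CPM, and those of UNx mice 10.6, 14.9 and 16.3 (log2 fold change 0.04, adjusted p = 0.849). At 48 h they were 13.2, 15.4 and 19.8 CPM in sham and 9.82, 11.3 and 16.9 in UNx mice. Trpm6 fell there by 0.42 (edgeR adjusted p = 0.0284), with 5 of 6 UNx mice under the sham mean and overlapping groups. That call was lost when any 1 of sham replicates 4 and 5 or UNx replicates 1, 2, 4 and 5 was left out (adjusted p 0.0508 to 0.0643). At 72 h the difference was -0.22 and was not called.

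Egf had a similar course. It went from 1822 ± 197 to 1598 ± 153 CPM at 24 h (-0.19, adjusted p = 0.0986) and fell from 1528 ± 182 to 1211 ± 141 at 48 h (-0.34, adjusted p = 0.0175), with 6 of 6 UNx mice under the sham mean. At 72 h the means were 1871 ± 199 and 1910 ± 67.4. Defb1 fell only at 48 h among the 3 times, from 151 ± 22.6 to 114 ± 18.6 CPM (-0.40, adjusted p = 0.0178), and was at 82.7 ± 5.94 and 91.3 ± 9.03 at 24 h (0.14, adjusted p = 0.138).

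The calbindins went the other way from the nuclei at 24 h. Calb1 rose from 164 ± 25.8 to 261 ± 46.6 CPM (0.67, adjusted p = 0.00137), with 6 of 6 UNx mice above the sham mean. At 48 h it stood at 382 ± 117 and 306 ± 53.9 CPM (-0.32, adjusted p = 0.188). S100g rose at 24 h, from 115 ± 28.7 to 159 ± 22.5 CPM (0.46, adjusted p = 0.0228). The call was lost without sham replicate 5, sham replicate 6 or UNx replicate 5. At 48 h S100g stood at 279 ± 77.8 and 210 ± 30.0 CPM (-0.41, adjusted p = 0.0695). At 72 h neither differed (0.08 and -0.04).

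**Figure D5:**
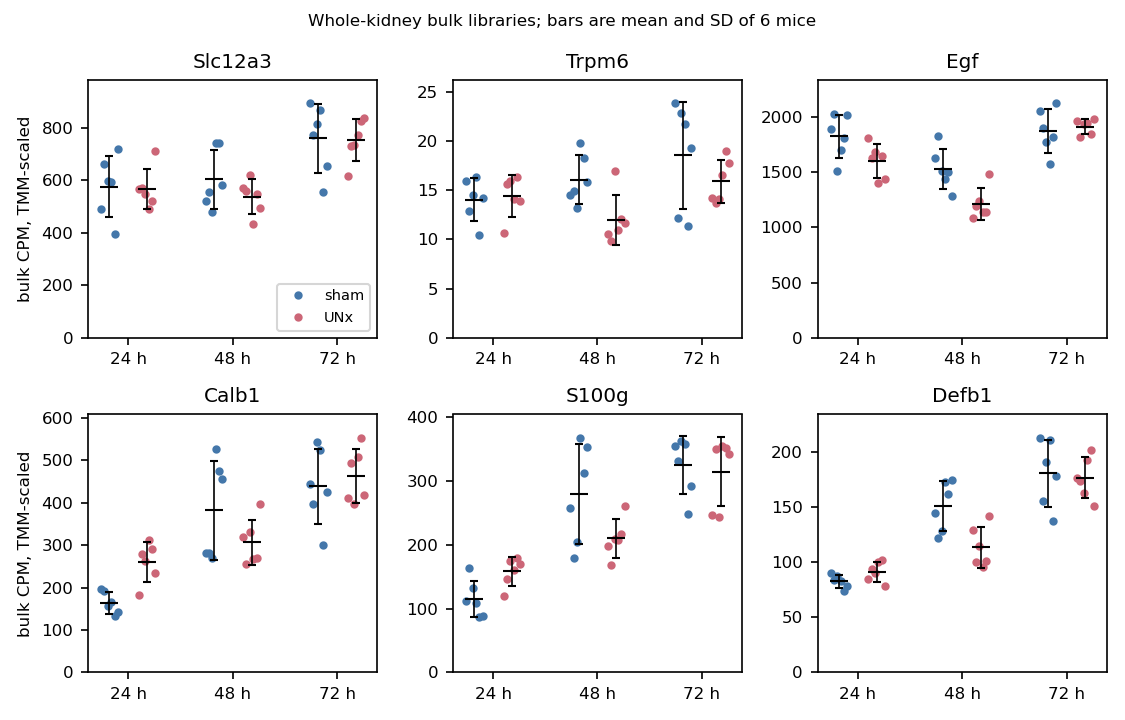
Levels of 6 genes in whole-kidney bulk libraries (TMM-scaled CPM, axes from 0) at 24, 48 and 72 h, 1 point per mouse, with bars for the mean and SD of 6 mice. Slc12a3 overlaps at each time, Trpm6, Egf and Defb1 are lower after UNx at 48 h, and Calb1 and S100g are higher after UNx at 24 h.

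Of the 13 genes lower in DCT nuclei, 12 could be tested in bulk. At 24 h 2 were called higher (Calb1, S100g) and 2 lower (Pamr1, Lgr4), near the shares over all genes (14.2% higher, 13.1% lower), so the counts are not a result about these genes. Their median log2 fold change was 0.08, beside 0.0054 over all genes. At 48 h 0 were called higher and 4 lower (Trpm6, Egf, Defb1 and Pamr1), beside 16.9% and 16% of all genes, with a median of -0.33 beside -0.04. At 72 h none was called. Pamr1 fell at 24 h from 7.58 ± 1.65 to 5.26 ± 0.57 CPM (-0.53, adjusted p = 0.0101) and at 48 h from 8.99 ± 1.15 to 5.40 ± 1.28 (-0.73, adjusted p = 0.00294), where the groups did not overlap. Lgr4 fell at 24 h from 119 ± 10.6 to 96.6 ± 3.58 CPM (-0.30, adjusted p = 0.00238). Kl, lower in DCT but not called there, fell in bulk at 24 h from 885 ± 81.7 to 750 ± 26.9 CPM (-0.24, adjusted p = 0.0102), with no overlap of the groups. Cish rose at 24 h by 0.84 (adjusted p = 0.0325), a call lost without sham replicate 5 or 6 or UNx replicate 2, 3 or 6, and Socs2 was not called at any time.

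Among the genes at least 2-fold higher in DCT, 8 of 9 could be tested in bulk. Tsc22d1 rose at 24 h (0.26, adjusted p = 0.00669). At 48 h Cnnm2 rose (0.28, adjusted p = 0.0133) and Trpm7 (-0.38, adjusted p = 0.00642) and Trpm6 fell. None was called at 72 h. Of all genes 27.3% were called at 24 h, 32.9% at 48 h and 1.71% at 72 h. The counts are therefore not a result about this set. The mitochondrial share of bulk counts was 25.3% in sham and 23.1% in UNx mice at 24 h, 14.7% and 24.3% at 48 h and 14.5% and 15.0% at 72 h. At 48 h the mean share was higher in the UNx group, in which the genes called lower fell. The part of the share in their fall was not tested. UNx replicate 6 at 48 h, with 15.2%, stood apart from the other 5 UNx mice of that time. This replicate lay within the range of the sham mice at 48 h, 14% to 15.5%. Without it the calls of Trpm6 (-0.39, adjusted p = 0.0497), Egf (-0.38, adjusted p = 0.00294), Defb1 (-0.46), Pamr1 (-0.72), Trpm7 (-0.43) and Cnnm2 (0.34) at 48 h were kept, and S100g (-0.46, adjusted p = 0.0448) and Lgr4 (-0.28, adjusted p = 0.025) also passed.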

How the data were processed

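Nuclei: the authors deposited estimated counts (UMIs, alevin and Seurat on mm10 per the submitters' processing notes) for 32285 genes with an annotation; 13.9% of nonzero values were not whole. Bulk: the authors deposited estimated counts per gene (Salmon 1.5.0 on GRCm39, FastQC 0.11.8, per the submitters' processing notes) for 28467 genes. The members and gene lists were chosen with earlier results of these data known. Nuclei were used as deposited (minimum 1755 UMIs); no doublet caller was run. Counts were summed over DCT nuclei per mouse, rounded, filtered (filterByExpr), TMM-normalised and tested with edgeR 4.0.16 quasi-likelihood (two-sided, Benjamini-Hochberg over all genes tested, threshold 0.05). Labels put equal replicate numbers of the nuclei in a shared batch, so the numbers pair the mice; the deviations of same-numbered mice from their group means correlated at 0.87. Alternatives used DESeq2 1.42.0 and limma 3.58.1. Bulk times were fitted separately, 6 against 6. Ratios within a batch add 1 CPM. Thinned shares are expected values at 3000 UMIs per nucleus. Named genes: among those with a mean log2 CPM of 6 or more that moved the same way in both batches, the 8 of lowest p in each direction of the test without the block, plus a fixed list of DCT genes, of which 1 is not reported here; for each difference between classes, the 3 of lowest p in each direction. The scripts were tested on simulated data. Labels do not say whether bulk replicates shared a surgery day.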

Additional observations from a re-analysis of the deposited data

Results flagged for a closer look

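Of 96 bulk groups of 6 mice examined over 16 named genes and values, 5 held a mouse far from the other 5, about what chance gives at 1 in 20. At 48 h after UNx, Cish stood at 66.9 CPM in replicate 1, Trpm6 at 16.9 CPM in replicate 3 and Trpm7 at 137 CPM in replicate 6, each far above the others. In the same replicate 6 the mitochondrial share was 15.2%, far below the others. At 24 h after UNx, Slc12a3 stood at 711 CPM in replicate 6, far above the others.

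S100g moved in opposite directions at 24 h and 48 h in bulk. All 6 UNx mice lay above the sham mean at 24 h (log2 fold change 0.46) and all 6 below it at 48 h (-0.41). The difference between the times was not tested, and the labels put the times in different batches.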

How the results depend on the processing

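The replicate block decided the calls in DCT nuclei. Without it edgeR, DESeq2 and limma voom called 0 genes, as did each other alternative run, and with it edgeR called 61. Settings combined with the block after the data were seen called 31 (DESeq2), 100 (limma voom), 277 (DESeq2 size factors), 54 (no mitochondrial genes), 15 (nuclei without proximal and thick limb excess) and 71 (nuclei without excess of any other type). The batch within class, also added, called 36 against the connecting tubule, 35 against the thick limb and 68 against all other nuclei. Without a filter on low counts, 9 were called against the connecting tubule. In bulk 0 DCT-enriched genes were called with the 4-fold margin. The 2-fold margin gave 1 of 8 at 24 h and 3 of 8 at 48 h, beside 27.3% and 32.9% of all genes. The bulk replicate number marks no shared animal or batch, and a replicate block left the counts for the 4-fold margin at 0, as without it. It turned Cish at 72 h to -0.12. The cause of these shifts was not tested.

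Log2 fold changes of DCT nuclei turned sign without nuclei dominated by other markers for Stk39 (-0.15), Nr3c2 (0.0693), Slc8a1 (-0.44) and Fgf13 (-0.0861), and with the block and no excess of any other type for the same genes (-0.17, 0.0743, -0.41 and -0.117). Slc8a1 was itself among the markers by which those nuclei were left out. With the block and no proximal or thick limb excess Nr3c2 was 0.0457 and Fgf13 -0.0435. Leaving out 1 mouse, which unbalances the batches, gave these ranges without the block: Slc12a3 -0.25 to 0.45, Wnk1 -1.10 to 0.47, Klhl3 -0.55 to 0.41, Stk39 -0.50 to 0.60, Kcnj10 -0.13 to 0.71, Nr3c2 -0.52 to 0.52, Sgk1 -1.20 to 1.81, Umod -1.95 to 0.57, Slc8a1 -0.58 to 1.28, Trpv5 -1.02 to 0.24, Emx1 -0.92 to 0.48, Sall3 -0.85 to 1.01, Esrrg -0.42 to 0.40, Ppargc1a -0.25 to 0.47, Igf1r -0.42 to 0.081, Fgf13 -1.06 to 1.03, Oprm1 -3.45 to 1.68 and S100g -1.86 to 0.16. For the difference of Trpm6 from all other nuclei the range was -1.83 to 1.099. The median UMI difference ranged from -1975 to 745 and turned positive without sham replicate 2, and that of the share from -3.3 to -0.62 points.

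In bulk, leaving out 1 mouse gave at 24 h Slc12a3 -0.11 to 0.0522, Trpm6 -0.0343 to 0.11 and Socs2 -0.0888 to 0.54. At 48 h it gave Cish -0.66 to 0.37 and Socs2 -0.13 to 0.29. At 72 h it gave Slc12a3 -0.0893 to 0.0385, Egf -0.0155 to 0.0683, Calb1 -0.0121 to 0.15, S100g -0.11 to 0.0194, Defb1 -0.104 to 0.0162, Cnnm2 -0.0014 to 0.11, Cish -0.19 to 0.21 and Socs2 -0.23 to 0.0905. None of these was called. Of the other values of single genes, 1585 kept direction and side of the threshold, 141 newly passed it and 14 no longer did.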
